A study of Mus musculus with 10 samples.

Results

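The 10 genes described here belong to insulin and insulin-like growth factor (IGF) signaling and were followed in interscapular brown adipose tissue (iBAT). They were the ligand gene *Igf1*, the receptor genes *Insr* and *Igf1r*, the adaptor genes *Irs1* and *Irs2*, the phosphoinositide 3-kinase (PI3-kinase) genes *Pik3r1* and *Pik3ca*, the kinase genes *Akt1* and *Akt2*, and the transcription factor gene *Foxo1*. The genes were chosen by name as components of the pathway. All 10 were found among the 27267 listed genes, and all 10 were among the 13714 genes tested, which had a mean normalized count of at least 10.

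Total RNA was sequenced from the iBAT of 5 wild-type and 5 *Mgp*-KO mice. *Mgp* encodes matrix Gla protein, an inhibitor of bone morphogenetic proteins. All animals were labelled as C57BL/6 males of 4 weeks, and the methods state a chow diet. The *Mgp*-KO mice came from a line of heterozygotes named B6.129S7-Mgptm1Kry/KbosJ and were described as lacking the gene in every tissue, so that the groups do not separate the adipocyte from the vessel wall or the rest of the body, and mice without *Mgp* are known for calcified arteries. The sources name no transgene and no agent given to the animals. Whether the mice were fasted and the hour of dissection, on which insulin signaling depends, are not given in the sources used here.

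Insulin and IGF1 bind receptor tyrosine kinases at the cell surface, which phosphorylate the insulin receptor substrates IRS1 and IRS2. These recruit PI3-kinase, whose lipid product brings AKT kinases to the membrane, and AKT phosphorylates many proteins, among them FOXO1, which then leaves the nucleus. In brown fat the pathway supports the differentiation of adipocytes, glucose uptake and the synthesis of fatty acids. The measurements here are of transcripts and do not show phosphorylation.

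Several libraries stood apart or went against their labels. *Mgp*-KO-labelled libraries 1, 2 and 3 held 0, 1 and 1 reads of *Mgp*, whereas those labelled *Mgp*-KO 4 and 5 held 309 and 282, and the 5 wild-type libraries held 485 to 805. Wild type 2 had 5094 normalized counts of *Xist* and 3.74 in sum of the Y chromosome genes examined, against 0.754 to 44.0 and 1457 to 7035 in the other libraries, all labelled male. Replicates 1 to 3 of both groups had 19616366 to 22252260 reads on genes and 0.771 to 1.72% of reads on mitochondrial ribosomal RNA, and replicates 4 and 5 had 9253793 to 13281873 reads and 6.50 to 16.7%. These 2 sets of libraries were therefore also compared within themselves. The genotype effect on *Mgp* differed between the replicate sets by 7.16 on the log2 scale (limma interaction, adjusted p = 2.51e-04). Skeletal muscle markers, 8 genes in all, summed to 38450 and 33580 in *Mgp*-KO-labelled libraries 2 and 5 and to 5862 in wild type 3, against 40.2 to 4112 in the others, and among them *Actn3* was at 0 in at least 1 library. The 5 blood cell markers summed to 101400 in *Mgp*-KO-labelled library 4 and to 3009 to 26400 elsewhere. All 8 adipocyte and all 8 brown adipocyte markers were detected, including *Ucp1*, the uncoupling protein of brown fat, which ranged from 38420 to 116000 in wild type and from 2201 to 15640 in *Mgp*-KO-labelled libraries. All labels were kept as given.

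Among the 10 genes, lower *Irs1* and *Igf1* and higher *Igf1r* in *Mgp*-KO-labelled libraries had the smallest p-values, but none passed the adjusted threshold when all 10 libraries were compared by genotype alone. In limma on log2(normalized count + 1), 0 of the 10 genes had an adjusted p under 0.05, where 0.0656% of all tested genes did. At an unadjusted p under 0.05 there were 3 (*Igf1r*, *Irs1* and *Igf1*), against 10.4% of all tested genes. DESeq2 on the recovered reads called *Irs1* and *Igf1r* (2.26% of all genes with an adjusted p), and 4 with a set term (7.42%). EdgeR called 0 of the 10 (0.0219% of all tested genes), with 2 at an unadjusted p under 0.05 (11.4%), and *Irs1* alone with a set term (2.49%). With a term for the replicate sets in limma, 2 of 10 genes, *Irs1* and *Igf1*, were called, both lower in *Mgp*-KO-labelled libraries. The same test called 2.36% of all tested genes, 1.54% as lower. Within replicates 1 to 3 *Irs1* and *Igf1* were again called, where 3.54% of all tested genes were, 1.65% as lower. For replicates 4 and 5 alone, limma called 0 of the 10 and 0% of all tested genes, with 1 of the 10 and 6.23% of all tested genes at an unadjusted p under 0.05.

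**Figure D1:**
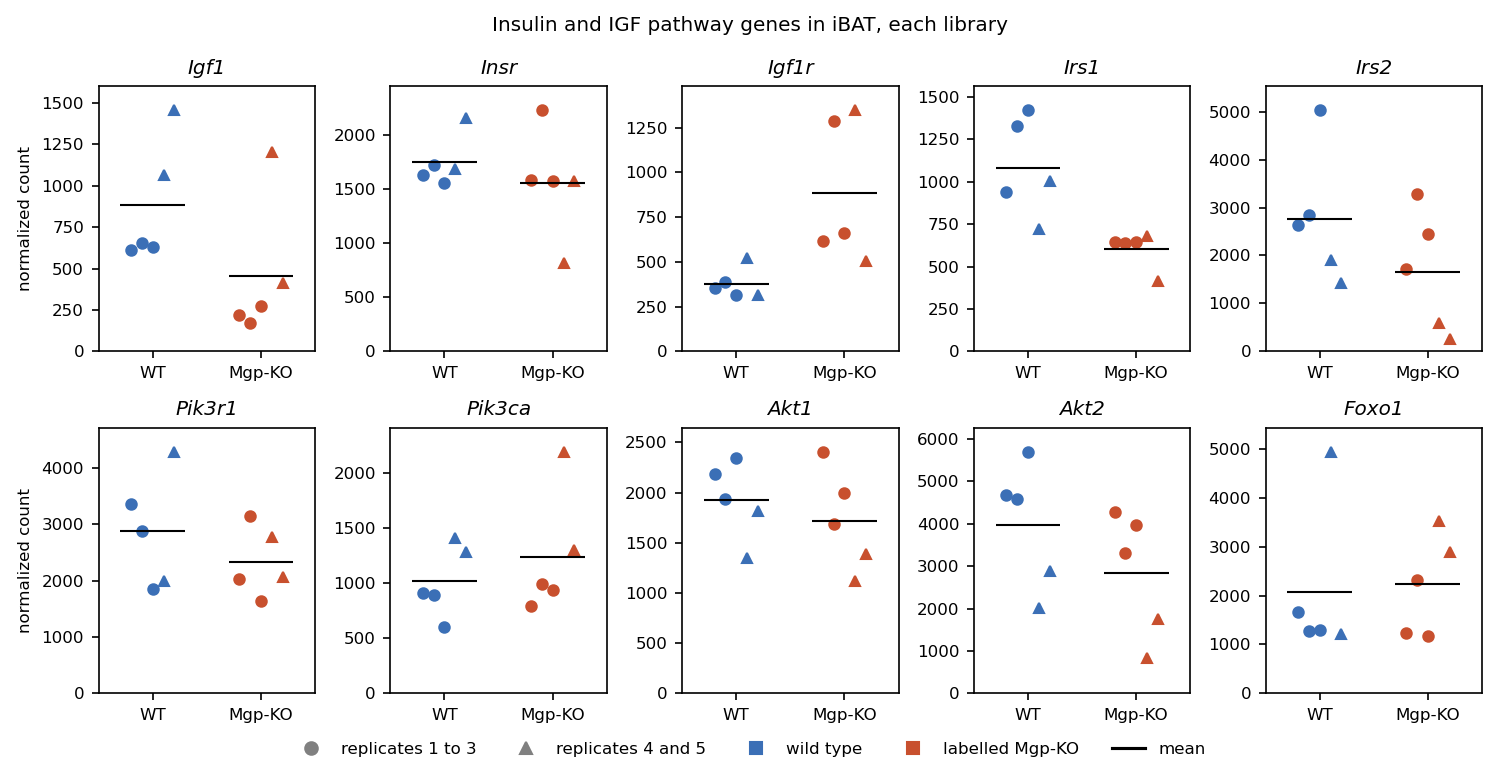
Normalized counts of the 10 pathway genes in each of 5 wild-type and 5 Mgp-KO-labelled libraries, with circles for replicates 1 to 3, triangles for replicates 4 and 5 and a line at the group mean. The groups do not overlap for Irs1, and Irs2 and Akt2 are lower and Igf1 higher in replicates 4 and 5.

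The level of the 10 genes was compared per length of exon. In wild type, the order in normalized counts per kb of exon was *Akt2* at 556 ± 208 (SD, n = 5), *Akt1* at 470 ± 92.8, *Irs2* at 438 ± 220, *Pik3r1* at 285 ± 99.6, *Foxo1* at 239 ± 185, *Insr* at 127 ± 17.1, *Irs1* at 119 ± 31.6, *Pik3ca* at 112 ± 35.8, *Igf1* at 89.2 ± 37.6 and *Igf1r* at 22.6 ± 5.14. The ranges of neighbours in this order overlapped in wild type, except those of *Igf1* (61.8 to 147) and *Igf1r* (18.7 to 31.2). The order differed between the replicate sets in both groups. *Akt2* stood above *Akt1* in all 6 libraries of replicates 1 to 3 and below it in all 4 of replicates 4 and 5, for example at 282 against 330 per kb in wild type 4. *Foxo1* was the highest of the 10 genes in wild type 4 (569 per kb) and *Mgp*-KO-labelled library 4 (406 per kb). *Igf1r* was the lowest of the 10 genes in all 5 wild-type libraries. In *Mgp*-KO-labelled libraries 1 to 3 it stood above *Igf1*, at 36.7, 76.7 and 39.3 against 21.9, 17.2 and 27.5 per kb, and in libraries 4 and 5 below it, at 80.3 and 30.0 against 122 and 41.7.

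**Figure D2:**
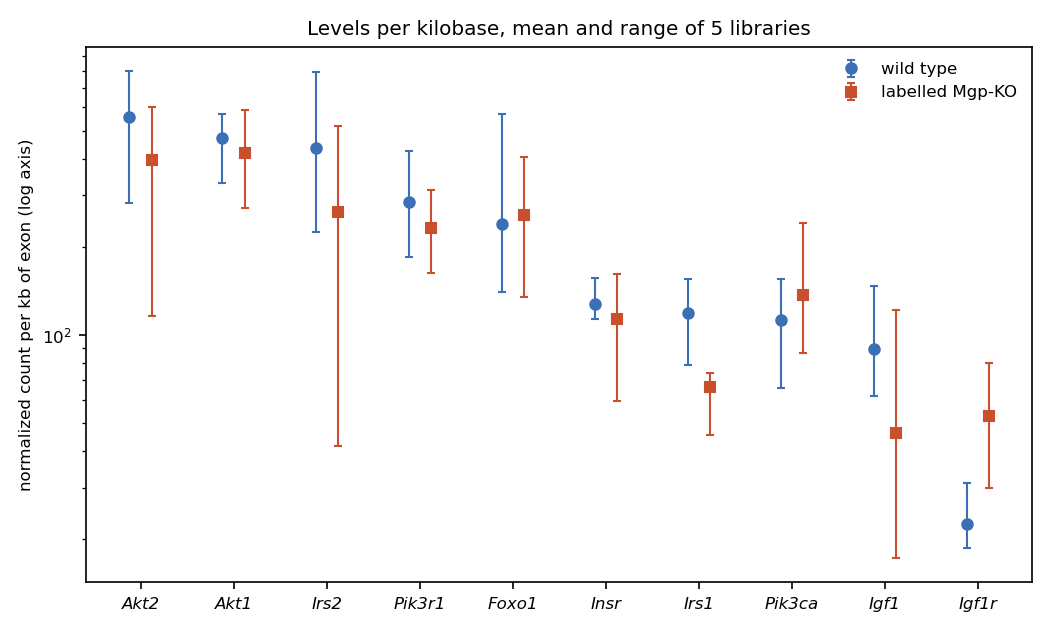
Normalized count per kb of exon of each gene on a log axis, as the mean of 5 libraries with a bar from the lowest to the highest. Per length, Igf1r was the lowest of the 10 genes in wild type at a mean of 22.6, and Akt2 had the highest mean, 556, which rests on replicates 1 to 3.

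*Igf1* (10:87858265-87937042, plus strand, GRCm38) encodes insulin-like growth factor 1, which adipose tissue makes locally in addition to the supply from the liver. Its normalized counts were 612, 654, 629, 1066 and 1457 in the 5 wild-type libraries and 217, 171, 273, 1204 and 413 in those labelled *Mgp*-KO, each in the order of replicates 1 to 5, which holds for all such values here. Within replicates 1 to 3 the groups did not overlap and the wild-type values lay close together, whereas *Mgp*-KO-labelled library 4 lay between both wild-type libraries of its set. The mean in replicates 1 to 3 was 632 ± 21.5 (SD, n = 3) in wild type and 220 ± 51.1 in *Mgp*-KO-labelled libraries, 2.87-fold lower. In bulk tissue, fewer cells of a type and less RNA per cell cannot be told apart. *Igf1* fell there by 1.54 on the log2 scale (95% interval -1.96 to -1.12, limma adjusted p = 0.0098). Over all 10 libraries the difference was -1.25, with an SE of 0.48 and an adjusted p of 0.363 in limma, and with an SE of 0.28 and an adjusted p of 0.0408 with the set term. Without *Mgp*-KO-labelled libraries 4 and 5 the set-term fit gave -1.54 and an adjusted p of 0.0102. With these libraries out, the set-term estimate of every gene comes from replicates 1 to 3 alone, so it repeats the value above. Without wild type 3 and *Mgp*-KO-labelled libraries 2 and 5, those highest in muscle markers, the set-term fit gave -0.84 and 0.262. That fit called 0 genes in all.

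*Insr* (8:3122061-3279617, minus strand) encodes the insulin receptor. Its normalized counts were 1624, 1718, 1557, 1680 and 2153 in wild type and 1577, 2226, 1572, 817.5 and 1572 in *Mgp*-KO-labelled libraries. Of the latter, 3 lay within the wild-type range, library 2 just above it and library 4 far below it. The difference was -0.23 ± 0.24 (SE) on the log2 scale, with a 95% interval from -0.76 to 0.30 and an adjusted p of 0.802 in limma. In replicates 1 to 3 it was 0.11 (interval -0.25 to 0.48), and in replicates 4 and 5 it was -0.75 (interval -1.72 to 0.23).

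*Igf1r* (7:67952827-68233668, plus strand) encodes the receptor for IGF1 and IGF2. Its normalized counts were 356, 387, 313, 523 and 315 in wild type and 616, 1287, 659, 1348 and 504 in *Mgp*-KO-labelled libraries. Only *Mgp*-KO-labelled library 5, at 504, lay below the highest wild-type value of 523, and within replicates 1 to 3 the groups did not overlap. The mean was 379 ± 86.4 (SD, n = 5) in wild type and 883 ± 402 in *Mgp*-KO-labelled libraries, which were 2.33-fold higher. On the log2 scale the difference was 1.13 ± 0.30 (SE; 95% interval 0.48 to 1.77). It did not pass the adjusted threshold in limma over 10 libraries (adjusted p = 0.183), with the set term (0.0661) or within replicates 1 to 3 (1.20, 0.0619), and it passed in DESeq2 over 10 libraries (1.22, adjusted p = 0.0129). Without wild type 3 and *Mgp*-KO-labelled libraries 2 and 5 the difference was 1.16 (set term, adjusted p = 0.147), in a fit that called 0 genes in all. With 1 library left out in turn the difference lay between 0.94 and 1.30. The call changed without 2 libraries. Without *Mgp*-KO-labelled library 5 the set-term fit gave an adjusted p of 0.0322 in limma, and without *Mgp*-KO-labelled library 2 the fit to replicates 1 to 3 gave 0.0139.

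The receptor genes were also set against each other within each library, since such a ratio does not depend on the size factor. The ratio of *Insr* to *Igf1r* counts was 4.56, 4.44, 4.97, 3.21 and 6.84 in wild type and 2.56, 1.73, 2.38, 0.606 and 3.12 in *Mgp*-KO-labelled libraries. The groups did not overlap, over all libraries or within either set. The mean log2 ratio was 2.22 ± 0.39 (SD, n = 5) in wild type and 0.86 ± 0.94 in *Mgp*-KO-labelled libraries, a difference of -1.36. Most of this difference came from *Igf1r*, with a log2 fold change of 1.13 over 10 libraries against -0.23 for *Insr*. The two-sided exact permutation test gave p = 0.00794, the smallest that 5 against 5 libraries allow, and 0.0317 when adjusted over the 4 ratios examined. In replicates 1 to 3 the difference was -1.08 (exact p = 0.1) and in replicates 4 and 5 it was -1.77 (exact p = 0.333), both the smallest p that so few libraries allow.

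**Figure D3:**
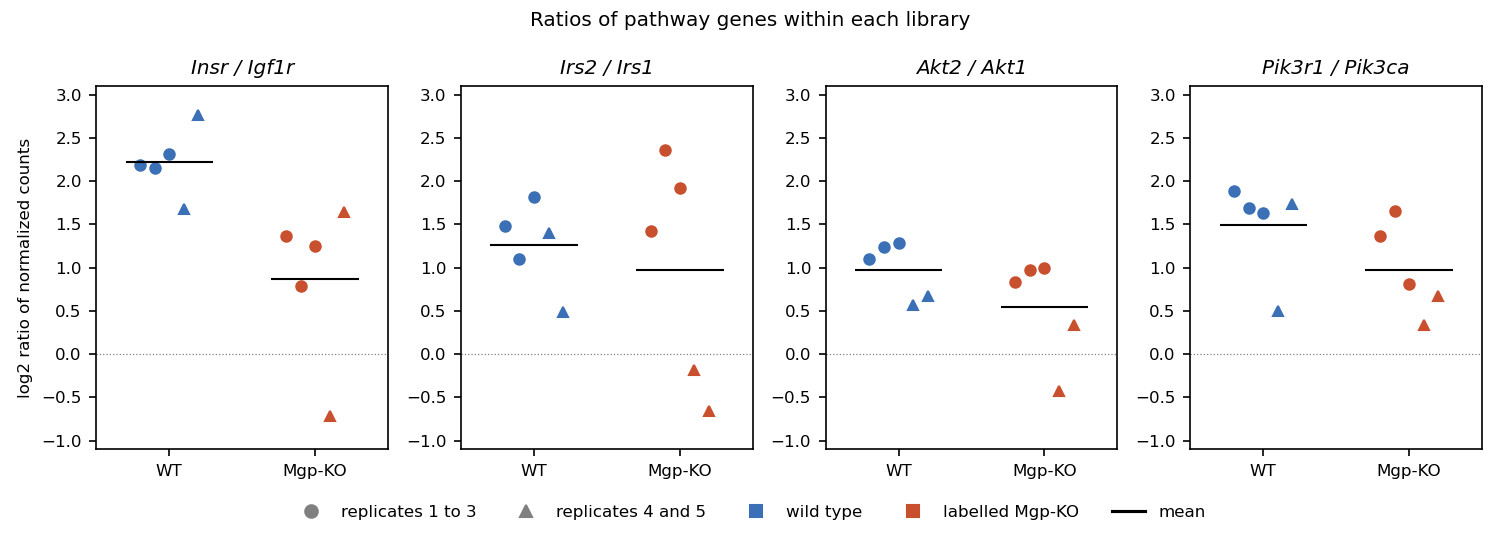
Log2 ratio of normalized counts of 4 gene pairs within each library, with circles for replicates 1 to 3, triangles for replicates 4 and 5 and a line at the group mean. The groups are apart for Insr to Igf1r, with means of 2.22 and 0.86, and overlap for the other 3 ratios.

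*Irs1* (1:82233101-82291416, minus strand) and *Irs2* (8:10984681-11008458, minus strand) encode the main adaptors of both receptors. Insulin represses transcription of *Irs2* in other tissues, where FOXO factors act at insulin response sequences. The starts of both genes are shown because *Irs1* was called and *Irs2* differed most between the replicate sets. The sequences run from 250 bases before to 50 after the start site, in RefSeq on GRCm38.p6, on the strand of the gene at chr1:82291390-82291689 and chr8:11008880-11009179. Capitals mark matches to CAAAACA, the insulin response sequence, which reads TGTTTTG on the opposite strand.
Irs1: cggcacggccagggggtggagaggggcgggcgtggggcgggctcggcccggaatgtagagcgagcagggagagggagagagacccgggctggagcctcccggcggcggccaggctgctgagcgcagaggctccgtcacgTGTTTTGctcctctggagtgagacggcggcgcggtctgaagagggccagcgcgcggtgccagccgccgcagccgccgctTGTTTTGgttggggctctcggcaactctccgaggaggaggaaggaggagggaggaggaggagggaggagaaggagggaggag
Irs2: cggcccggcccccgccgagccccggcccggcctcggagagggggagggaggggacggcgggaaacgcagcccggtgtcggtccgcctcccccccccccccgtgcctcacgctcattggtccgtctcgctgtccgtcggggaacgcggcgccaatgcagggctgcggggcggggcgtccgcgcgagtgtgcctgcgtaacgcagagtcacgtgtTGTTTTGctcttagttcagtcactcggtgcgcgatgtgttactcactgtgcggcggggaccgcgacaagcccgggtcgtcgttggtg
*Irs1* held 2 matches, which began at -111 and -32 from the start site, and *Irs2* held 1, which began at -37. The RefSeq starts differ from those of the GENCODE genes above. CAAAACA was found on either strand in 6.28% of 32851 promoters of this length, and in 2 of the 14 promoters that matched 9 of the 10 genes. The FOXO element GTAAACA was found in 3.65% of the promoters, and in 1 of the 14, that of *Akt1*. A match is a string of letters and shows no binding.

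Normalized counts of *Irs1* were 939, 1330, 1423, 721 and 1007 in wild type and 645, 639, 648, 678 and 416 in *Mgp*-KO-labelled libraries. Every *Mgp*-KO-labelled library was below every wild-type library, and 4 of them lay between 639 and 678. *Irs1* was the only one of the 10 genes whose groups did not overlap over 10 libraries, as was so for 3.5% of all tested genes, 2.11% with lower values in *Mgp*-KO-labelled libraries. The mean was 1084 ± 289 (SD, n = 5) in wild type and 605 ± 107 in *Mgp*-KO-labelled libraries, 1.79-fold lower. *Irs1* fell by 0.82 ± 0.18 (SE) with the set term (95% interval -1.21 to -0.43, limma adjusted p = 0.0399) and by 0.91 within replicates 1 to 3 (adjusted p = 0.0339). Without the set term the same difference had an SE of 0.22 and an adjusted p of 0.200. Without *Mgp*-KO-labelled libraries 4 and 5 the set-term value was -0.91 (adjusted p = 0.0487), which repeats the estimate within replicates 1 to 3. Without wild type 3 and *Mgp*-KO-labelled libraries 2 and 5 the set-term value was -0.60 (0.262), in a fit that called 0 genes in all.

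With the set term both calls sat close to the threshold. There, *Irs1* and *Igf1* were called without wild type 4 (adjusted p = 0.0329 and 0.0369 in limma) and without *Mgp*-KO-labelled library 4 (0.0101 and 0.00215), and neither was called when any of the other 8 libraries was left out, with adjusted p from 0.0548 to 0.121. Within replicates 1 to 3 the call of *Irs1* was lost without wild type 2 (0.157), wild type 3 (0.104) and *Mgp*-KO-labelled libraries 1 (0.0918) and 3 (0.0858), and that of *Igf1* without wild type 2 (0.0713). The summed brown adipocyte markers were 78160 to 172500 in wild type and 27480 to 69210 in *Mgp*-KO-labelled libraries, and their part in the lower *Irs1* and *Igf1* was not tested. Of the 8 genes 0 were called in limma over 10 libraries and 3 with the set term (*Ucp1*, *Dio2* and *Elovl3*, lower), against 2.36% of all tested genes. Without *Ucp1* the sum of the other 7 was 36840 to 65090 in wild type and 25280 to 53570 in *Mgp*-KO-labelled libraries, which overlap. Summed adipocyte markers ranged from 236700 to 589600 in wild type and from 241900 to 456400 in *Mgp*-KO-labelled libraries, and summed adipose progenitor markers from 15510 to 47630 and from 10750 to 26620. Endothelial markers summed to 19100 to 30010 and 21080 to 52580, and macrophage markers to 1183 to 2178 and 1366 to 1808. Over all 10 libraries the groups overlapped in each of these 4 sums. A sum can hide single markers. *Mgp*-KO-labelled library 4 had 4675 of *Adipoq* and 4830 of *Cidec*, against 10790 to 20090 and 10150 to 15750 elsewhere. *Plin1* was at 1929 and 3048 in *Mgp*-KO-labelled libraries 2 and 4, against 9009 to 20630 elsewhere. The adipocyte sums of these libraries, 272700 and 456400, lay within the wild-type range. Within sets some of the sums did not overlap. In replicates 1 to 3, where *Irs1* and *Igf1* were called, progenitor markers summed to 23250 to 47630 in wild type and to 10750 to 22250 in *Mgp*-KO-labelled libraries. Of these 8 markers 0 were called there. The groups overlapped there for *Pdgfra* (312.6 to 436.7 against 284.1 to 343.5), *Dpp4* (12.73 to 24.99 against 12.81 to 17.24) and *Pi16* (84.61 to 212.5 against 36.72 to 110), which make up little of the sum. In replicates 4 and 5 endothelial markers summed to 19650 to 30010 and to 30300 to 52580, and macrophage markers to 1183 to 1197 and to 1366 to 1582. The blood cell markers summed there to 12590 to 19940 in wild type and to 26400 to 101400 in *Mgp*-KO-labelled libraries, in the set where *Irs2*, *Akt2* and *Insr* were lower without overlap. The part of these cells in the results was not tested.

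Normalized counts of *Irs2* were 2628, 2850, 5031, 1907 and 1417 in wild type and 1725, 3275, 2449, 597 and 264 in *Mgp*-KO-labelled libraries. The groups overlapped within replicates 1 to 3, while both *Mgp*-KO-labelled libraries in replicates 4 and 5 were far below every other library. The difference was -1.11 ± 0.63 (SE; 95% interval -2.48 to 0.26, limma adjusted p = 0.583) over 10 libraries, -0.48 within replicates 1 to 3 (adjusted p = 0.403) and -2.05 within replicates 4 and 5 (adjusted p = 0.679). Without *Mgp*-KO-labelled library 5 the difference over the other 9 libraries was -0.57. DESeq2 gave an adjusted p of 0.0155 for *Irs2* within replicates 4 and 5 and 0.0330 over 10 libraries with the set term. The difference between the sets in the genotype effect was -1.57, with an unadjusted p of 0.0208 and an adjusted p of 0.459 in limma. None of the 10 genes passed the adjusted threshold in this interaction (1 of 10 at an unadjusted p under 0.05, against 10.3% of all tested genes), and 0.00729% of all tested genes did.

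The ratio of *Irs2* to *Irs1* counts was 2.80, 2.14, 3.54, 2.64 and 1.41 in wild type and 2.67, 5.13, 3.78, 0.881 and 0.634 in *Mgp*-KO-labelled libraries. *Irs2* exceeded *Irs1* in every library but those labelled *Mgp*-KO 4 and 5. The log2 ratio differed by -0.29 between the groups (two-sided exact permutation test, p = 0.675), by 0.43 in replicates 1 to 3 and by -1.37 in replicates 4 and 5.

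*Pik3r1* (13:101680563-101768217, minus strand) encodes the regulatory subunit p85 alpha of PI3-kinase, and *Pik3ca* (3:32397671-32468486, plus strand) the catalytic subunit p110 alpha. *Pik3r1* had 3362, 2875, 1856, 1995 and 4281 normalized counts in wild type and 2024, 3146, 1643, 2770 and 2070 in *Mgp*-KO-labelled libraries. *Pik3ca* had 910, 894, 600, 1407 and 1284 in wild type and 790, 992, 934, 2190 and 1302 in *Mgp*-KO-labelled libraries. The groups overlapped widely for both genes, and *Pik3ca* was higher in each group in replicates 4 and 5 than in replicates 1 to 3. The log2 fold change was -0.27 for *Pik3r1* (95% interval -0.86 to 0.32, limma adjusted p = 0.783) and 0.25 for *Pik3ca* (interval -0.42 to 0.92, adjusted p = 0.831). That of *Pik3r1*, with 1 library left out, lay between -0.41 (without wild type 3) and -0.11 (without wild type 5), and was -0.15 without *Mgp*-KO-labelled library 3. The ratio of *Pik3r1* to *Pik3ca* ranged from 1.42 to 3.69 in wild type and from 1.26 to 3.17 in *Mgp*-KO-labelled libraries, and the mean log2 ratio differed by -0.52 (two-sided exact permutation test, p = 0.151). Wild type 4 had the lowest ratio of its group, and without it the difference was -0.77 (exact permutation p = 0.0317).

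*Akt1* (12:112653821-112674884, minus strand) and *Akt2* (7:27591552-27640826, plus strand) encode the serine-threonine kinases that carry the signal onward, and AKT2 is the form most tied to insulin-stimulated glucose uptake in fat. *Akt1* had 2182, 1935, 2339, 1351 and 1819 normalized counts in wild type and 2402, 1688, 1996, 1115 and 1383 in *Mgp*-KO-labelled libraries. *Akt2* had 4666, 4576, 5686, 2010 and 2893 in wild type and 4282, 3318, 3959, 826 and 1754 in *Mgp*-KO-labelled libraries. Within each set every *Mgp*-KO-labelled library had less *Akt2* than every wild-type library of that set, but the sets lay further apart than the groups. The log2 fold change of *Akt2* was -0.62 ± 0.45 (SE; limma adjusted p = 0.678), -0.37 within replicates 1 to 3 (0.197) and had an interval from -2.07 to 0.07 within replicates 4 and 5 (0.679). With the set term the adjusted p was 0.165. Without *Mgp*-KO-labelled library 4 the difference over the other 9 libraries was -0.24. For *Akt1* it was -0.19 (95% interval -0.71 to 0.33, adjusted p = 0.831). The ratio of *Akt2* to *Akt1* counts was 2.14, 2.36, 2.43, 1.49 and 1.59 in wild type and 1.78, 1.97, 1.98, 0.740 and 1.27 in *Mgp*-KO-labelled libraries, and the groups did not overlap within either set. The log2 ratio differed by -0.43 between the groups (two-sided exact permutation test, p = 0.206), by -0.27 in replicates 1 to 3 (exact p = 0.1) and by -0.67 in replicates 4 and 5 (exact p = 0.333), both the smallest p possible there. Without *Mgp*-KO-labelled library 4 the difference was -0.19 (exact permutation p = 0.413).

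*Foxo1* (3:52268336-52353221, plus strand) encodes a forkhead factor that AKT keeps out of the nucleus. Its normalized counts were 1657, 1278, 1295, 4931 and 1211 in wild type and 1238, 2323, 1170, 3518 and 2893 in *Mgp*-KO-labelled libraries. Wild type 4 was the highest of all 10 libraries, and wild type 5 was among the lowest. The log2 fold change was 0.21 ± 0.43 (SE; 95% interval -0.73 to 1.16), with an adjusted p of 0.905 in limma. Without wild type 4 it was 0.59 (adjusted p = 0.557) and without *Mgp*-KO-labelled library 4 it was 0.01.

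**Figure D4:**
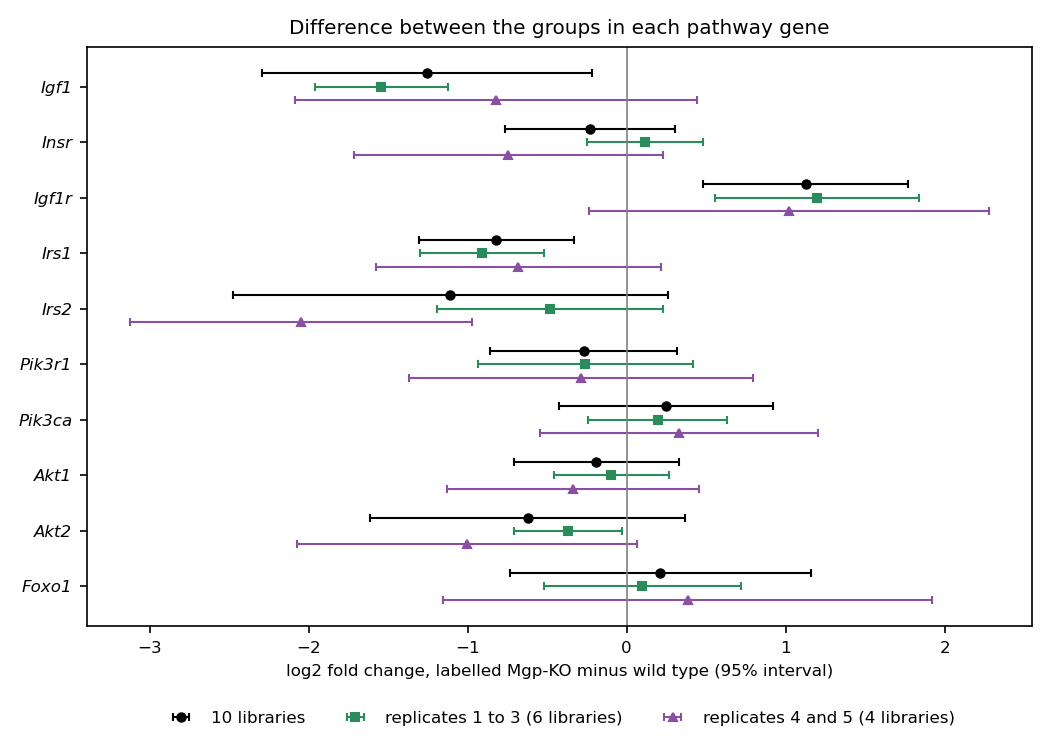
Log2 fold change of each gene, Mgp-KO-labelled libraries minus wild type, with its 95% interval from limma over all libraries, over replicates 1 to 3 alone and over replicates 4 and 5 alone. The interval of replicates 1 to 3 lies below 0 for Igf1, Irs1 and Akt2 and above 0 for Igf1r, and that of replicates 4 and 5 includes 0 for all genes but Irs2.

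Taken over the 10 genes, 7 had a negative and 3 a positive log2 fold change, with a median of -0.25 against 0.03 over all tested genes. The median absolute log2 fold change was 0.45, against 0.26 over all tested genes. Only *Insr* differed in sign between the sets, and 9 of 10 genes had the same sign in both, as did 60.3% of all tested genes. Within replicates 1 to 3 the groups did not overlap for 4 of 10 genes, *Irs1*, *Akt2* and *Igf1* lower and *Igf1r* higher in *Mgp*-KO-labelled libraries, against 30.6% of all tested genes, 15.1% lower and 15.5% higher. Within replicates 4 and 5 they did not overlap for 4 of 10, *Insr*, *Irs1*, *Irs2* and *Akt2*, all lower, against 41.6%, with 21.3% lower. Both shares were near the background. Without *Mgp*-KO-labelled library 4 the log2 fold changes of *Insr* (-0.02), *Akt1* (-0.05), *Pik3ca* (0.02) and *Foxo1* (0.01) over the other 9 libraries lay close to 0, and other libraries moved them away from 0. They reached -0.38 for *Insr* without *Mgp*-KO-labelled library 2, -0.33 for *Akt1* and 0.39 for *Pik3ca* without *Mgp*-KO-labelled library 1, and 0.59 for *Foxo1* without wild type 4.

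More of the 10 genes were called between the replicate sets than between the groups, and the same held for all tested genes (38.2% against 2.36% with the set term). With genotype in the model, 6 of the 10 genes were called between replicates 4 and 5 and replicates 1 to 3, against 38.2% of all tested genes in limma, 19.9% lower and 18.3% higher in replicates 4 and 5. In replicates 4 and 5, *Irs2* was lower by 1.81 on the log2 scale (a value of -1.81, adjusted p = 0.0028), *Akt2* by 1.35 (-1.35, 0.0012) and *Akt1* by 0.57 (-0.57, 0.0136). *Igf1* was higher by 1.34 (adjusted p = 0.0037), *Foxo1* by 0.95 (0.0466) and *Pik3ca* by 0.84 (0.0043). The set difference was larger in size than the genotype difference for these 6 genes and smaller for the other 4, which were *Igf1r* (0.12 between the sets against 1.13 between the groups), *Irs1* (-0.39 against -0.82), *Insr* (-0.21 against -0.23) and *Pik3r1* (0.14 against -0.27). The log2 ratios within libraries were compared between the sets too, as replicates 4 and 5 minus replicates 1 to 3, in exact permutation tests. The difference was -1.42 for *Irs2* to *Irs1* (exact p = 0.0190), -0.78 for *Akt2* to *Akt1* (exact p = 0.00952, the smallest that 6 against 4 libraries allow), -0.69 for *Pik3r1* to *Pik3ca* (exact p = 0.0762) and -0.33 for *Insr* to *Igf1r* (exact p = 0.638). Adjusted over the 4 ratios these exact p-values were 0.0381, 0.0381, 0.102 and 0.638. The sets also differed in depth and in the share of mitochondrial ribosomal RNA, given above, and in what else they differed is not given in the labels.

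Other genes of the pathway were read from 10 lists of 102 genes, of which 99 were listed and 92 tested. Over 10 libraries 1 of the 92 was called, *Fasn* (1.09% against 0.0656% of all tested genes). With the set term 7 were called, or 7.61% against 2.36%, of which 4 were lower and 3 higher in *Mgp*-KO-labelled libraries. In replicates 1 to 3 alone, 13 of the 92 were called (14.1% against 3.54% of all tested genes), 6 lower and 7 higher. All lists were chosen with earlier results of these data known, so these shares do not test the pathway. The median log2 fold change of the 92 genes was -0.01. By list, the medians ran from -0.37 in the insulin-induced genes to 0.29 in the FOXO factors other than *Foxo1*.

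**Figure D5:**
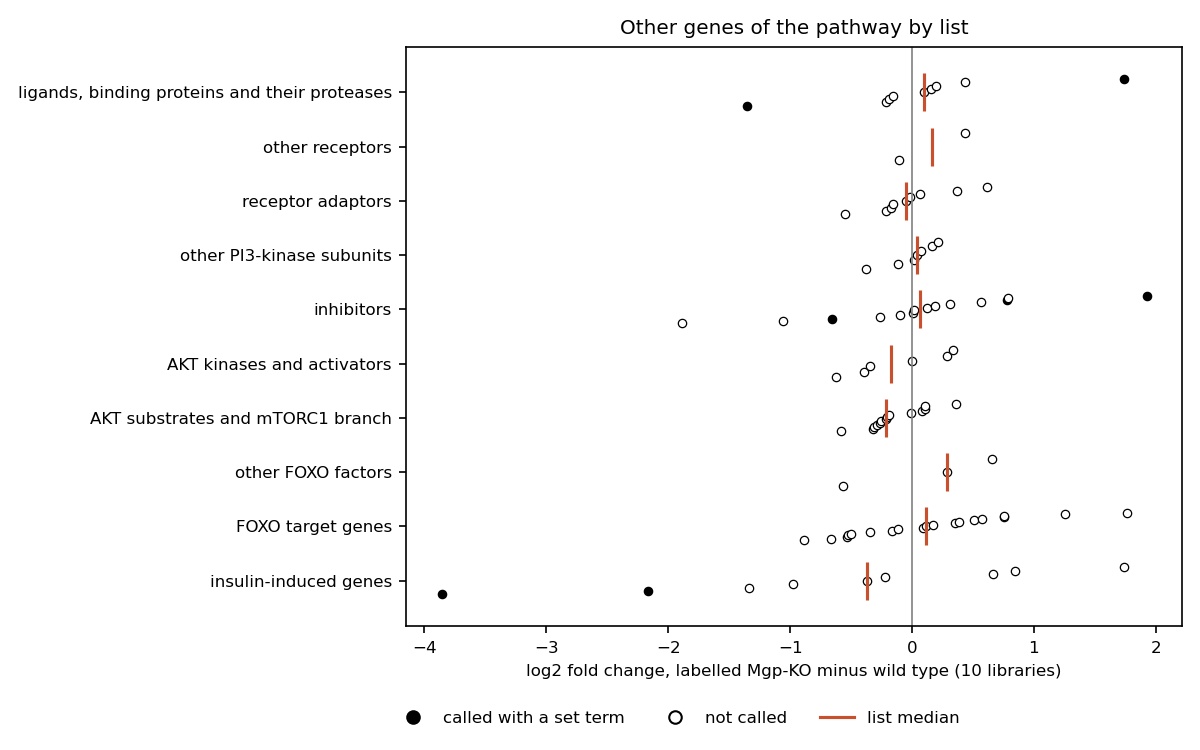
Log2 fold change of 92 other genes of the pathway in 10 lists, Mgp-KO-labelled libraries minus wild type over 10 libraries, with filled points for the 7 genes called with the set term and a line at each list's median. The list medians lie close to 0, from -0.37 to 0.29, and the called genes fall on both sides.

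Among ligands, binding proteins and their proteases, 2 of 9 tested genes were called with the set term, against 2.36% of all tested genes. *Igfbp3*, which encodes the main carrier of IGFs in blood, had 540, 487, 523, 750 and 405 normalized counts in wild type and 1869, 4191, 1324, 1212 and 1368 in *Mgp*-KO-labelled libraries. The groups did not overlap, and the mean was 3.68-fold higher in *Mgp*-KO-labelled libraries. *Igfbp3* rose by 1.74 on the log2 scale (limma with set term, adjusted p = 0.0178, and 0.0575 without it). *Igfals*, which encodes the acid-labile subunit that holds IGF and IGFBP3 in a ternary complex, had 202, 137, 251, 66.0 and 125 in wild type and 88.9, 79.6, 61.6, 32.4 and 35.2 in *Mgp*-KO-labelled libraries. Within each set its groups did not overlap, and it fell by 1.35 (set term, adjusted p = 0.0162, and 0.225 without it). With 1 library left out, the set-term call of *Igfbp3* was lost without wild type 2 (0.0577), 3 (0.0636) or 5 (0.0526), and that of *Igfals* without wild type 3 (0.0606). Without wild type 3 and *Mgp*-KO-labelled libraries 2 and 5 neither was called, with *Igfbp3* at 1.42 (0.0992) and *Igfals* at -1.28 (0.158), in a fit that called 0 genes in all. Without *Mgp*-KO-labelled libraries 4 and 5, which held *Mgp* reads, *Igfbp3* was called (2.08, 0.0375) and *Igfals* was not (-1.32, 0.0643). Both estimates repeat those of replicates 1 to 3. *Igfbp1* and the insulin genes were not analysed here, and *Igfbp2* and *Pappa2* were under the filter.

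Among the other receptors, 0 of 2 tested genes were called over 10 libraries in limma, with or without the set term. *Igf2r*, the receptor that clears IGF2, had 2420 ± 173 (SD, n = 3) normalized counts in wild type 1 to 3 and 3987 ± 452 in *Mgp*-KO-labelled libraries 1 to 3, and rose there by 0.72 on the log2 scale (limma adjusted p = 0.0325). In replicates 4 and 5 it had 1121 ± 51.6 (SD, n = 2) in wild type and 1137 ± 22.5 in *Mgp*-KO-labelled libraries, a difference of 0.02. The difference between the sets was -0.70, with an adjusted p of 0.455. *Ghr*, the growth hormone receptor through which *Igf1* is induced, had a log2 fold change of -0.10 (adjusted p = 0.936), which averages opposite signs, 0.39 (0.356) among the libraries of replicates 1 to 3 and -0.84 (0.679) among those of replicates 4 and 5. Between the sets this effect differed by -1.23 (unadjusted p = 0.0203, adjusted p = 0.459 in limma). The value over 9 libraries was positive without wild type 5 or *Mgp*-KO-labelled library 4 (0.07 each) and -0.28 without *Mgp*-KO-labelled library 2.

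Of 9 tested receptor adaptors and 7 further PI3-kinase subunits, 0 were called over 10 libraries in limma, with or without the set term, and within replicates 1 to 3 the docking protein gene *Gab1* was called higher (0.65, adjusted p = 0.0266). The adaptors with the largest log2 fold change were *Dok1* at 0.61 (adjusted p = 0.368) and *Sh2b2* at -0.55 (0.463). Among the PI3-kinase subunits they were the catalytic *Pik3cb* at -0.37 (0.520) and the class II enzyme *Pik3c2a* at 0.21 (0.854), which turned to -0.02 without wild type 3 and was 0.07 without *Mgp*-KO-labelled library 4, 0.13 without library 5, and 0.33 to 0.35 without wild type 4, wild type 5 or *Mgp*-KO-labelled library 1.

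Of 14 tested inhibitors of the pathway, 3 were called with the set term, against 2.36% of all tested genes. *Pik3ip1*, which encodes a membrane protein that inhibits PI3-kinase, had 145, 98.8, 226, 136 and 69.2 normalized counts in wild type and 519, 1628, 445, 168 and 393 in *Mgp*-KO-labelled libraries. Only *Mgp*-KO-labelled library 4 lay within the wild-type range, and the gene rose by 1.93 (limma with set term, adjusted p = 0.0370, and 0.188 without it). *Inpp5k*, which encodes a phosphatase of the PI3-kinase product, rose by 0.78 with the set term (adjusted p = 0.0434), from a mean of 517 ± 77.7 (SD, n = 5) in wild type to 943 ± 378. *Ppp2r5b*, a regulatory subunit of the phosphatase that acts on AKT, fell by 0.65 (adjusted p = 0.0405), from 572 ± 95.7 to 363 ± 62.4. *Ptprf*, a receptor phosphatase, had 544 ± 59.2 (SD, n = 3) in wild type 1 to 3 and 81.9 ± 80.7 in *Mgp*-KO-labelled libraries 1 to 3 (log2 fold change -3.14, adjusted p = 0.0339), and differed by -0.01 in replicates 4 and 5. Between the sets this effect differed by 3.13 (limma interaction, adjusted p = 0.455). *Mgp*-KO-labelled library 2, highest in muscle markers, had the highest *Pik3ip1* and *Inpp5k* of all libraries, and without it and the other libraries highest in muscle markers, wild type 3 and *Mgp*-KO-labelled library 5, neither gene was called with the set term (*Pik3ip1* 1.51, adjusted p = 0.148; *Inpp5k* 0.66, 0.244). *Ppp2r5b* was not called there either (-0.51, 0.262), and the fit called 0 genes in all. With 1 library left out, all 3 genes were called with the set term without wild type 4 or *Mgp*-KO-labelled library 4, and *Pik3ip1* also without *Mgp*-KO-labelled library 2. Without *Mgp*-KO-labelled libraries 4 and 5 *Inpp5k* was called (1.07, 0.0220), and *Pik3ip1* (2.28, 0.0588) and *Ppp2r5b* (-0.63, 0.107) were not. These estimates repeat those of replicates 1 to 3. When any other single library was left out none of the 3 was called, and the adjusted p reached 0.0986 for *Pik3ip1*, 0.132 for *Inpp5k* and 0.125 for *Ppp2r5b*.

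None of 6 tested AKT kinases and activators, 14 AKT substrates and genes of the mTORC1 branch, or 3 other FOXO factors was called in limma over 10 libraries, with or without the set term, or within replicates 1 to 3. *Mtor*, the kinase of both mTOR complexes, had a log2 fold change of -0.62 (adjusted p = 0.550) and *Mapkap1*, a subunit of mTORC2, of -0.39 (0.691). *Eif4ebp1*, a translation repressor that mTORC1 phosphorylates, had -0.59 (0.692) and *Tsc1*, which restrains mTORC1, had 0.36 (0.645). *Foxo3* had 0.66 (0.690), with its highest value, 2003 normalized counts, in *Mgp*-KO-labelled library 2, against 175 to 632 in the other 9. *Foxo6* had -0.57 (0.760). Single libraries moved these values. Without *Mgp*-KO-labelled library 4 the log2 fold change was -0.41 for *Mtor*, -0.14 for *Mapkap1*, -0.17 for *Eif4ebp1* and -0.24 for *Foxo6*, and without *Mgp*-KO-labelled library 2 it was 0.17 for *Tsc1* and 0.19 for *Foxo3*. Without wild type 5 it was 0.41 for *Foxo3*, and without *Mgp*-KO-labelled library 5 it was -0.89 for *Foxo6*.

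Genes that FOXO factors are known to induce were spread to both sides over 10 libraries. Of 19 tested, 0 were called over 10 libraries in limma, with or without the set term, 11 had a positive and 8 a negative log2 fold change, and the median was 0.12. The median was 0.38 within replicates 1 to 3, where *Gadd45a* and *Txnip* were called, both higher, and -0.08 within replicates 4 and 5. *Gadd45a*, which encodes a stress-induced growth inhibitor, rose within replicates 1 to 3 by 1.98 (adjusted p = 0.0095), from 63.0 ± 9.71 (SD, n = 3) to 255 ± 59.7 normalized counts. In replicates 4 and 5 it differed by 0.17, and between the sets this effect differed by -1.81 (limma interaction, adjusted p = 0.470). *Txnip*, which encodes an inhibitor of thioredoxin and of glucose uptake, rose by 1.28 in replicates 1 to 3 (adjusted p = 0.0378) and differed by -0.04 in replicates 4 and 5. *Trim63*, a ubiquitin ligase of muscle, had 975 normalized counts in *Mgp*-KO-labelled library 2 and 0.715 to 43.4 elsewhere, with a log2 fold change of 1.77 (adjusted p = 0.740), and of 0.29 without that library. The groups did not overlap for 2 of the 19, *Pck1* and *Cat*, both lower in *Mgp*-KO-labelled libraries, as were 2.11% of all tested genes, and both were named after their values were seen. *Pck1*, the gluconeogenic and glyceroneogenic enzyme that insulin represses, had 41020 to 54040 normalized counts in wild type and 13780 to 35300 in *Mgp*-KO-labelled libraries, with a log2 fold change of -0.89 (adjusted p = 0.290, and 0.0968 with the set term). *Cat*, which encodes catalase, had 9022 to 12110 and 2961 to 8998, with a log2 fold change of -0.66 (adjusted p = 0.477, and 0.188 with the set term).

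Of 9 tested genes that insulin induces, 2 were called with the set term, against 2.36% of all tested genes. Both encode enzymes of fatty acid synthesis. *Fasn*, which encodes fatty acid synthase, had 156800, 289600, 386800, 74790 and 175500 normalized counts in wild type and 15260, 12620, 13100, 23740 and 5989 in *Mgp*-KO-labelled libraries. The groups did not overlap, the means were 15.3-fold apart, and *Fasn* fell by 3.86 on the log2 scale (limma adjusted p = 0.0255 over 10 libraries). *Acly*, ATP citrate lyase, had 18810, 34100, 47800, 11560 and 45330 in wild type and 5658, 9245, 6863, 6219 and 3968 in *Mgp*-KO-labelled libraries. It fell by 2.16 with the set term (adjusted p = 0.0165, and 0.0575 without it). With 1 library left out, the set-term call of *Fasn* held in 10 of 10 fits (adjusted p at most 0.030), and that of *Acly* was lost without wild type 2 (0.0550) or 3 (0.0605). Without wild type 3 and *Mgp*-KO-labelled libraries 2 and 5 neither was called, with *Fasn* at -3.26 (0.0970) and *Acly* at -1.97 (0.158), in a fit that called 0 genes in all. Without *Mgp*-KO-labelled libraries 4 and 5 *Fasn* was called (-4.25, 0.0040) and *Acly* was not (-2.14, 0.0661), and both estimates repeat those of replicates 1 to 3. Without the set term *Fasn* was called in 5 of 10 fits with 1 library left out (0.0101 to 0.126). The sum of the 8 brown adipocyte markers, described with *Irs1*, was lower in the same libraries, and its part in these changes was not tested. In replicates 1 to 3 alone limma called 5 of the 9, against 3.54% of all tested genes. *Srebf1* (-1.01, limma adjusted p = 0.0361), *Pnpla3* (-1.76, 0.0404), *Fasn* and *Acly* were lower there and the immediate early gene *Egr1* was higher (2.56, 0.0031). The list did not move one way, since 6 of its 9 genes had a negative and 3 a positive log2 fold change.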

How the data were processed

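Per the methods, the authors aligned single reads to mm10 with STAR, which also tallied the reads of each gene, and scaled the tallies by DESeq2 size factors. The deposited signal is therefore in normalized counts. The annotation release and strand setting are not given in the sources used here, so reads of overlapping or antisense genes may be mixed. Divided by the value of 1 read, 100% of values were whole within 0.01 reads, so reads were recovered. Libraries held 9253793 to 22252260 reads, and a floor of 3 reads is 2.15 to 5.19 normalized counts, counting error only.

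Limma 3.58.1 in R 4.3.3 (eBayes with trend) was fitted to log2(normalized count + 1) of the 13714 genes with a mean of at least 10, with no block. Benjamini-Hochberg adjustment was over all of them, with a threshold of 0.05. Fold changes on this scale understate those of low genes. A set term separates replicates 1 to 3 from 4 and 5. EdgeR 4.0.16 and DESeq2 1.42.0 on recovered reads, other pseudocounts, filters and scalings, and left-out libraries were alternatives. Set-term fits with libraries left out or rescaled were added after the data were seen. Ratios within a library were tested by two-sided exact permutation (scipy 1.17.1). The fits were tested on simulated data. Intervals are at 95%.

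The 10 genes and all lists were chosen with earlier results of these data known. Outside the 10 genes, the text names *Mgp*, in each list every gene called with or without the set term and the 2 genes with the largest absolute log2 fold change, marker sums, and the first 3 markers of a list. *Xist*, *Actn3*, *Elovl3*, *Pck1*, *Cat*, *Txnip*, *Gab1*, *Srebf1*, *Pnpla3* and *Egr1* were outside this rule and were named after their values were seen. A replicate was taken as 1 mouse. Coordinates and exon lengths come from GENCODE on GRCm38, promoters from RefSeq.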

Additional observations from a re-analysis of the deposited data

Results flagged for a closer look

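Among 74 groups of 5 libraries examined, 4 held a library far from the others, and chance alone gives about 1 in 20. *Irs1* in *Mgp*-KO-labelled libraries was lowest in library 5, at 416.2 normalized counts, against 639 to 678 in the other 4. *Foxo1* in wild type was highest in library 4, at 4931, against 1211 to 1657. *Foxo3* in wild type was lowest in library 5, at 174.8. The log2 ratio of *Pik3r1* to *Pik3ca* in wild type was lowest in library 4, at 0.5036, against 1.63 to 1.89 in the other 4.

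The genotype effect on *Mgp* in replicates 4 and 5 differed from that in replicates 1 to 3 by 7.16 on the log2 scale (limma interaction, adjusted p = 2.51e-04), since *Mgp*-KO-labelled libraries 4 and 5 held 309 and 282 reads of the deleted gene. None of the 10 pathway genes had an adjusted p under 0.05 in the same test.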

How the results depend on the processing

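The counts of calls moved with the model more than the sizes of the differences did. Over 10 libraries 9 genes were called in limma, and 29 with a pseudocount of 10, 1 without a filter, 15 with a mean of at least 50, 34 with quantile normalization, 324 with the set term, 3 in edgeR, 341 in edgeR with the set term, 374 in DESeq2, 1152 in DESeq2 with the set term, 486 in replicates 1 to 3 and 0 in replicates 4 and 5. Leaving out 1 library gave 0 to 93 genes. With the set term this gave 135, 62, 56, 378 and 142 genes without wild type 1 to 5 in turn, and 161, 206, 143, 678 and 252 without *Mgp*-KO-labelled libraries 1 to 5. With the set term, equal upper quartiles gave 328 and quantile normalization 340, without *Mgp*-KO-labelled libraries 4 and 5 there were 265, and without wild type 3 and *Mgp*-KO-labelled libraries 2 and 5 there were 0, with 2083 at an unadjusted p under 0.05.

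Of the 10 pathway genes 0 were called in limma over 10 libraries. There were 2 with the set term, 2 in replicates 1 to 3, 1 in edgeR with the set term (*Irs1*), 2 in DESeq2 (*Irs1*, *Igf1r*), 4 in DESeq2 with the set term (*Irs1*, *Irs2*, *Igf1*, *Igf1r*), and 0 to 1 with 1 library left out, the 1 being *Igf1* without *Mgp*-KO-labelled library 4 (adjusted p = 0.0487). With the set term and 1 library left out, 0 to 2 were called. The set term gave 2 under both rescalings and without *Mgp*-KO-labelled libraries 4 and 5, and the last of these fits repeats the estimates of replicates 1 to 3. Within replicates 1 to 3, DESeq2 called 1348 genes against 486 in limma, and leaving out 1 library gave 26 to 811 genes and 0 to 3 of the 10. Within replicates 4 and 5, DESeq2 called 50 genes and 1 of the 10, *Irs2*.

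The replicate numbers were also used as a block. Same-numbered libraries of the groups had a mean correlation of 0.389 in their deviations from group means, the lowest being 0.0559, against 0.416 for other numbers in the same set, and -0.0225 against 0.0236 once set means were taken off, so the numbers were not taken as pairs. The methods speak of 5 pairs of mice without saying what a pair shares or that the numbers mark it. With the replicate block, limma called 270 genes and 1 of the 10 (*Igf1r*, adjusted p = 0.0241), edgeR 222 and 1 (*Igf1r*), DESeq2 921 and 5 (*Irs1*, *Irs2*, *Akt2*, *Igf1*, *Igf1r*), and limma in replicates 1 to 3 called 265 and 2, *Igf1* (adjusted p = 0.0243) and *Igf1r* (0.0477), with *Irs1* at 0.0549. The log2 ratio of *Insr* to *Igf1r*, -1.358, had p = 0.0625 in the exact sign-flip test of the block, the smallest it allows.

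That ratio was -1.084 in replicates 1 to 3 and -1.768 in replicates 4 and 5, at the smallest p these allow, and -1.552 to -0.9613 with 1 library left out. The log2 ratio of *Irs2* to *Irs1*, -0.2896, turned to 0.1176 without *Mgp*-KO-labelled library 5 and to 0.4297 in replicates 1 to 3, and ranged from -0.6364 to 0.1176 with 1 library left out. That of *Pik3r1* to *Pik3ca* ranged from -0.7655 to -0.3618. Over 33 named genes and 888 comparisons with an alternative, 802 kept direction and side of the threshold, 74 passed it, 7 no longer passed it and 5 turned in sign. These were *Insr* in replicates 1 to 3 (0.115), *Ghr* without wild type 5 (0.0737), without *Mgp*-KO-labelled library 4 (0.0713) and in replicates 1 to 3 (0.3862), and *Pik3c2a* without wild type 3 (-0.0184). With 1 library left out, *Ghr* ranged from -0.2799 to 0.0737 and *Pik3c2a* from -0.0184 to 0.3518. In every case the cause was not tested. Replicates 4 and 5 had 9253793 to 13281873 reads and 2 libraries a group, and why limma called no gene there was not tested.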
